A study of Mus musculus with 4 samples.

Results

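The T-box factors examined were Tbx1, Tbx2, Tbx3, Tbx4, Tbx5, Tbx15, Tbx18, Tbx20 and Tbx22. They were taken by gene symbol, matched through their Ensembl identifiers, and make up 9 of the 55487 genes counted. RNA was sequenced from the calvaria, the roof of the skull, of mouse embryos at stage E14.5. One group held 2 libraries of frontal bone, and the other held 2 libraries in which parietal and interparietal bone were combined. No strain, genotype, sex or treatment is labelled for either group. How many embryos went into a library, and whether libraries of 1 group are from different embryos, is not stated either, so the p-values cover the spread between these samples only, and that spread may be technical. The series belongs to a study of citrate-carrying vesicles in biomineralization. Most of the frontal bone is of neural crest origin and the parietal bone is of mesodermal origin, but the interparietal bone has contributions from both, so the groups are not a plain contrast of origins.

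T-box factors are transcription factors that share a DNA-binding domain, the T-box, and act as activators or repressors in the patterning of mesoderm, limbs, heart and face. Tbx1, Tbx15, Tbx18, Tbx20 and Tbx22 belong to the Tbx1 subfamily. Tbx2, Tbx3, Tbx4 and Tbx5 form the Tbx2 subfamily, whose genes lie in linked pairs that arose by duplication. In the head, Tbx1 acts in pharyngeal mesoderm, in the muscles derived from it and in the inner ear, Tbx15 in skull and skin mesenchyme, Tbx18 in mesenchyme and vessel-wall cells, and Tbx22 in the palate.

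The core of the T-box element, the DNA sequence these proteins bind, is AGGTGTGA, or TCACACCT on the other strand. RefSeq promoter windows on GRCm38.p6, each running from 250 bases before to 50 bases after a transcription start, were searched for these 8 letters on both strands. Of 32851 windows 419 held it, a share of 1.28%. The table had 8 windows for 5 of the T-box factors (Tbx1, Tbx4, Tbx18, Tbx20 and Tbx22), and 0 of these held it. Tbx2, Tbx3, Tbx5 and Tbx15 had no window. Of 25 windows of 20 genes known as partners, regulators or targets of T-box factors, 2 held it, 1 of Cdkn1a and 1 of Nppa. The other window of Cdkn1a (chr17:29090729-29091028) held 0 matches. Some genes of that list had no window, among them Chd7 and Bmp2. The match in Cdkn1a began at base 14 of the transcript and ended at base 21, and the match in Nppa was the first 8 bases of the window, on the opposite strand. Both genes are known targets, Cdkn1a as a gene repressed by Tbx2 and Tbx3, and Nppa as a heart gene activated by Tbx5 and repressed by Tbx2 and Tbx3. The 2 windows with the element are shown because Cdkn1a differed between the groups, as given with the partner genes, and Nppa did not pass the filter on low counts. Those of Tbx1 (the upstream start) and Tbx18 are shown as the windows without it that belong to well-counted T-box factors. Capitals mark the element. A match describes the letters only and is not a test of binding.
Cdkn1a, chr17:29093519-29093818, plus strand: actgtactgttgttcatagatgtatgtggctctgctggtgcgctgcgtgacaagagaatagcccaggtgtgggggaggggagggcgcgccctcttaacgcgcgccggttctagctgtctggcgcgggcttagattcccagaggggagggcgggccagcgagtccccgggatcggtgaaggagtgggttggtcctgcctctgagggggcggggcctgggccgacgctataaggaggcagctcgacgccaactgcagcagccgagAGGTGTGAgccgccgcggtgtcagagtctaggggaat
Nppa, chr4:148000472-148000771, plus strand: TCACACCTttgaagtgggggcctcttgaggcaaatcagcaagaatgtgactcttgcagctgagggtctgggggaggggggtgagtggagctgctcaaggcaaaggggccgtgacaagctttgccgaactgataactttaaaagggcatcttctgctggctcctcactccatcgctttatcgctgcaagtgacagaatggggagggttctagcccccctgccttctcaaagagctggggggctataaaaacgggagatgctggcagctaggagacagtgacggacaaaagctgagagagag
Tbx1, chr16:18590622-18590921, minus strand: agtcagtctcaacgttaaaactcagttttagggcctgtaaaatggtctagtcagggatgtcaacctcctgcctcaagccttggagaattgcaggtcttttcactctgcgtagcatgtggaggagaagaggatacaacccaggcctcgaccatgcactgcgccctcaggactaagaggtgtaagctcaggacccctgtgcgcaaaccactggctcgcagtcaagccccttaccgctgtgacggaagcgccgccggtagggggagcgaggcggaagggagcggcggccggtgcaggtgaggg
Tbx18, chr9:87731211-87731510, minus strand: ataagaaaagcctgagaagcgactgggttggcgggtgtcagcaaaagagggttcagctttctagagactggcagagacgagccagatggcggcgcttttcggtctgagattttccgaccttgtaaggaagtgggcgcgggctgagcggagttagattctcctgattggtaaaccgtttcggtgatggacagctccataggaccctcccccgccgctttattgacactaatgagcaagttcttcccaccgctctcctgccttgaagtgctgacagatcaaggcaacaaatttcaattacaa

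Library depth was 24069177 to 35555013 gene counts. Of 55487 genes, 20947 passed a filter on low counts and were tested with edgeR's quasi-likelihood test, and a gene was called when its p adjusted by the Benjamini-Hochberg method was under 0.05. Values below are CPM, counts relative to library depth after TMM scaling, which sets libraries level on the bulk of their genes, and log2 fold changes are frontal over parietal-interparietal. The libraries held RNA of bone and of other tissues. The summed level of osteoblast markers was 1127 and 1118 CPM in frontal libraries, against 1579 and 1587 CPM in parietal-interparietal ones, although the list's median log2 fold change was 0.41, above 0. Head mesenchyme factors summed to 532 and 579 against 642 and 649 CPM. Muscle markers summed to 1486 and 1445 against 1943 and 1934 CPM, and brain markers to 1018 and 969 against 750 and 757 CPM. A T-box transcript can therefore not be assigned to bone cells or mesenchyme, and in such bulk samples fewer cells of a type and less RNA per cell cannot be told apart.

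In the fit of all 4 libraries after the filter, with group as the only term, no T-box factor of the 9 was called. All 9 passed the filter, and 0 of 9 were called by edgeR, where 12.7% of all tested genes were called. DESeq2 also called 0 of 9 (11.8% of all genes), and the fit with counts halved called 0 of the 7 that passed its filter (15.2% of all genes). The count was also 0 of 9 without parietal-interparietal library 1 (3.89%) or 2 (3.84%), and with these libraries summed (3.38%). With no filter on low counts it was 1 of 9 (Tbx15), where 10.9% of all genes were called. With the replicate number as a block it was also 1 of 9 (Tbx15), where 15.8% were called. Without frontal library 1 the count was 3 of 9 (Tbx1, Tbx5 and Tbx15), where 24.2% of all genes were called, and without frontal library 2 it was 2 of 9 (Tbx15 and Tbx20), where 32.6% were called. In the fit with all 4 libraries, at an unadjusted p under 0.05 there were 3 of 9 (Tbx1, Tbx5 and Tbx15), where 27.1% of all tested genes reached that level. The values of the groups did not overlap for 5 of 9, against 57.3% of all tested genes. Both frontal libraries were below for 4 (28.4% of all tested genes) and above for 1 (28.9%). Tbx20 was among those below only after scaling to depth. Frontal library 2 had 14 counts (0.398 CPM) and parietal-interparietal library 1 had 10 (0.409 CPM). The fitted differences were above 0 for 4 and below 0 for 5, with a median of −0.17 log2 units, against 0.01 over all genes tested. For 5 factors (Tbx1, Tbx2, Tbx3, Tbx15 and Tbx18) the 95% interval lay within a 2-fold change in either direction. The other 4 had under 100 counts in at least 1 library and wide intervals.

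**Figure D1:**
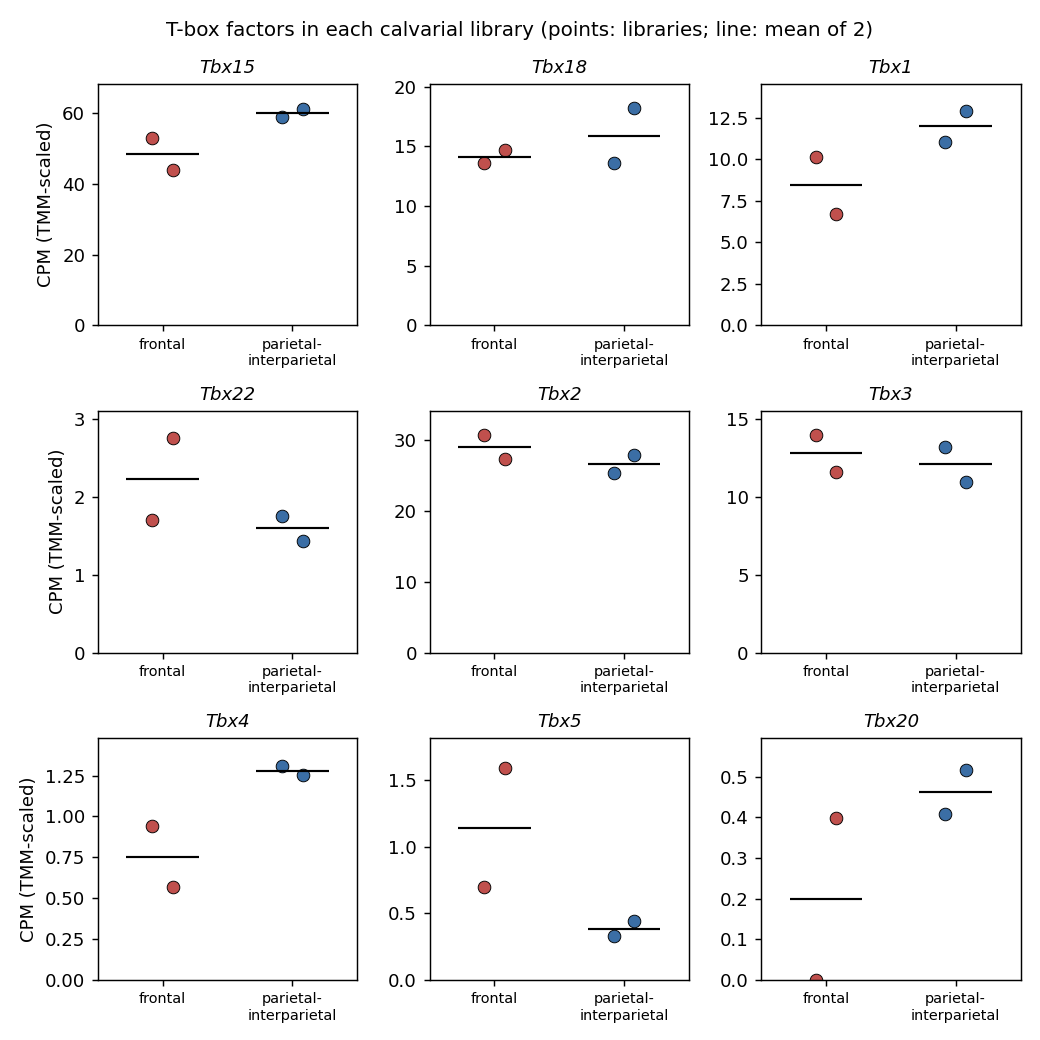
TMM-scaled CPM (linear axes from 0) of the 9 T-box factors in the frontal libraries (red) and the parietal-interparietal libraries (blue). Points are libraries and lines are means of 2. Tbx1, Tbx4, Tbx15 and Tbx20 were lower in both frontal libraries than in both parietal-interparietal libraries without passing the adjusted threshold, Tbx5 was higher, and Tbx2, Tbx3, Tbx18 and Tbx22 overlapped. For Tbx20 the nearest values were 0.398 CPM in frontal library 2 and 0.409 CPM in parietal-interparietal library 1.

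Levels of different genes were compared per kilobase of exon. The length was the union of the exons of all transcripts of a gene in GENCODE release M21. Some orders below rest on that length and differ in CPM. Tbx15 ranked first and Tbx2 ranked second in all 4 libraries. Tbx15 alone made up 45.3% and 43.3% of the summed T-box level per kilobase in frontal libraries 1 and 2, against 49.9% and 48.1% in parietal-interparietal libraries 1 and 2. Tbx2 made up 27.2% and 27.9% in frontal and 22.2% and 22.7% in parietal-interparietal libraries. Below them, Tbx18 (mean 3.18 CPM per kilobase over the 4 libraries) and Tbx1 (2.91) changed places from library to library, and each was above the other in 2 of 4. Tbx3 followed at 1.87 CPM per kilobase and was below Tbx1 in all 4 libraries, although its range overlapped that of Tbx1. That order rests on length (6.62 kb for Tbx3, 3.52 kb for Tbx1). In CPM, Tbx3 was above Tbx1 in every library but parietal-interparietal library 2. There was a step below Tbx3, which was 3.52 to 6.86 times as high as Tbx22 within a library. Tbx22, Tbx4 and Tbx5 averaged 0.345, 0.299 and 0.163 CPM per kilobase with overlapping ranges, and Tbx20 was last in all 4 libraries at 0.0276. The exon union of Tbx20 was 12.0 kb, against 4.67 kb for Tbx5. In CPM, Tbx20 was above Tbx5 in parietal-interparietal libraries 1 and 2 (0.409 and 0.516 against 0.327 and 0.442). The sum over the T-box factors was 31.2 and 27.1 CPM per kilobase in frontal libraries 1 and 2, against 31.5 and 34.0 in parietal-interparietal libraries 1 and 2.

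**Figure D2:**
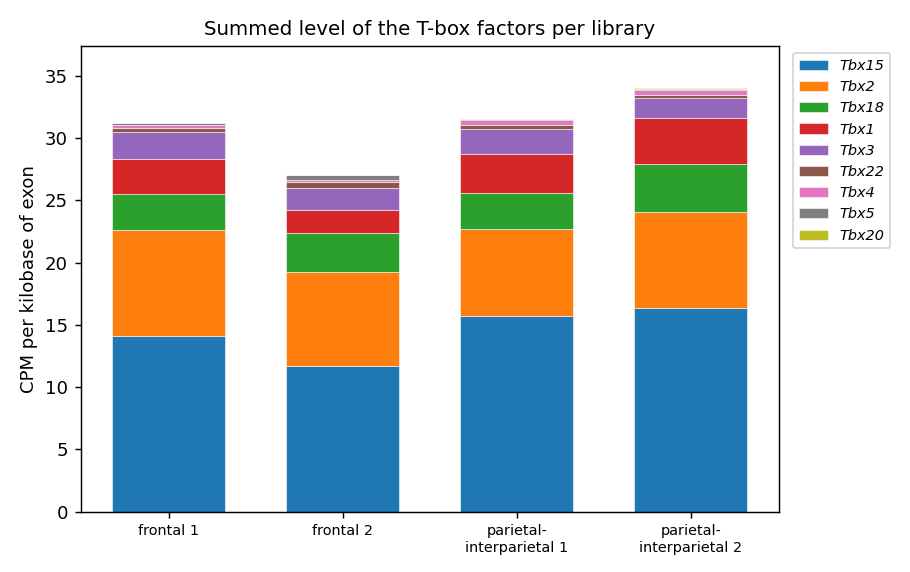
Level of the 9 T-box factors in CPM per kilobase of exon, stacked per library, with the frontal libraries on the left. Tbx15 and Tbx2 together fill most of every bar, and the sums run from 27.1 in frontal library 2 to 34.0 in parietal-interparietal library 2.

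Tbx15 is needed for the growth of skull and other skeletal elements, and mice without it have a small, misshapen skull and low-set ears. The gene (ENSMUSG00000027868) lies on the plus strand of chromosome 3, from 99240381 to 99354259. It had 1522 and 1544 counts in frontal and 1441 and 1663 counts in parietal-interparietal libraries. Scaled to depth these were 52.9 and 43.9 CPM in frontal libraries 1 and 2, against 59.0 and 61.3 CPM in parietal-interparietal libraries 1 and 2. Both frontal libraries lay below both others, but they were farther apart from each other than the upper one was from the parietal-interparietal libraries. The mean was 48.4 ± 6.42 CPM in frontal libraries, against 60.1 ± 1.64 CPM in parietal-interparietal ones (SD, n = 2 each), a log2 fold change of −0.31 ± 0.11 SE (95% interval −0.56 to −0.07). Its edgeR adjusted p = 0.0885 missed the threshold. The call differed between fits. With all 4 libraries and the replicate number as a block, Tbx15 was called lower (−0.32, edgeR adjusted p = 0.0489), though the labels do not pair the libraries. Tbx15 was called lower without frontal library 1 (−0.45, adjusted p = 2.03e-07), without frontal library 2 (−0.19, adjusted p = 0.0436) and, with all 4 libraries, when no filter on low counts was used (−0.31, adjusted p = 0.0444). Over 12 alternative settings its adjusted p lay between 2.03e-07 and 0.508. Of 6 tested dermis markers, 3 were called lower (Twist2, Dpt and Col3a1) and 1 higher (Crabp1), and they summed to 2114 and 2238 CPM in frontal libraries, against 2377 and 2411 CPM in parietal-interparietal ones. Whether skin took part in the Tbx15 values was not tested.

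Tbx18, the close paralog of Tbx15, keeps the boundaries of somite compartments and marks the mesenchyme around ureter, heart and vessels (ENSMUSG00000032419, minus strand of chromosome 9, 87702800 to 87731260). It was at 13.6 and 14.7 CPM in frontal libraries 1 and 2, against 13.6 and 18.2 CPM in parietal-interparietal libraries 1 and 2. The groups overlapped, and the highest value was that of parietal-interparietal library 2. The log2 fold change was −0.17 ± 0.16 (95% interval −0.53 to 0.19, edgeR adjusted p = 0.556), and it was 0.05 without parietal-interparietal library 2. Markers of pericytes and other vessel-wall cells summed to 393 and 364 CPM in frontal libraries, against 439 and 437 CPM in parietal-interparietal ones. Of 9 tested, edgeR called 2 lower (Rgs5 and Notch3), against 6.44% of all tested genes, and DESeq2 called 1. The part of vessel-wall cells in the Tbx18 values was not tested. The ratio of Tbx15 to Tbx18 counts, which does not depend on scaling, was 3.90 and 2.99 in frontal and 4.34 and 3.37 in parietal-interparietal libraries, and overlapped between the groups.

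Tbx1, a regulator of pharyngeal arch and head muscle development whose human counterpart lies in the segment lost in DiGeorge syndrome, is on the minus strand of chromosome 16 (ENSMUSG00000009097, 18580979 to 18590671). It had 292 and 237 counts in frontal and 270 and 351 counts in parietal-interparietal libraries. This gave 10.2 and 6.73 CPM in frontal libraries 1 and 2, against 11.1 and 12.9 CPM in parietal-interparietal libraries 1 and 2. Both frontal values were the lower ones, and frontal library 2 stood farthest off. The log2 fold change was −0.51 ± 0.21 (95% interval −0.98 to −0.05, edgeR adjusted p = 0.142). It was −0.83 and called without frontal library 1 (adjusted p = 6.26e-05), and −0.25 and not called without frontal library 2 (adjusted p = 0.269), and over the 12 alternatives the adjusted p lay between 6.26e-05 and 0.570. Of 11 tested muscle markers 7 were called lower and 0 higher. Of 9 tested inner ear markers 7 were called lower and 0 higher, and the list summed to 75.8 and 73.5 CPM in frontal libraries, against 159 and 154 CPM in parietal-interparietal ones. The part of muscle and inner ear in the Tbx1 values was not tested.

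Tbx22 and Tbx20 were low. Tbx22, an X-linked gene of the palate whose mutation causes cleft palate in humans (ENSMUSG00000031241, chromosome X, plus strand, 107667964 to 107688978), was at 1.70 and 2.76 CPM in frontal libraries 1 and 2, against 1.76 and 1.44 CPM in parietal-interparietal libraries 1 and 2. Frontal library 2 held the highest value, and frontal library 1 lay between the others. Its log2 fold change was 0.49 ± 0.40 (95% interval −0.39 to 1.37, edgeR adjusted p = 0.479). Without frontal library 2 it was 0.09, and without frontal library 1 it was 0.79, with no call in either. Tbx20, a factor of the heart and of hindbrain motor neurons (ENSMUSG00000031965, chromosome 9, minus strand, 24718138 to 24774303), had 0 and 14 counts in frontal and 10 and 14 counts in parietal-interparietal libraries. The count of 0 in frontal library 1 allows a level of up to 0.128 CPM by counting error alone if each count is a separate fragment. That limit is the upper end of the 95% Poisson interval, and it is higher if both mates of a pair were counted. The other 3 libraries were at 0.398, 0.409 and 0.516 CPM. The log2 fold change of −1.15 ± 1.12 (95% interval −3.63 to 1.33, edgeR adjusted p = 0.564) left a difference not detectable at this depth. Without frontal library 2 the frontal side rested on that 0 and Tbx20 was called lower (adjusted p = 0.035, the lowest of 11 alternatives, of which the highest gave 0.926). Heart markers summed to 76.1 and 80.5 CPM in frontal libraries, against 117 and 119 CPM in parietal-interparietal ones. Of these 10 markers 6 were tested, with 1 called higher (Hand2) and 1 lower (Tnnt2). Nkx2-5 (16 and 10 counts in frontal against 4 and 2), Gata4 (2 and 0 against 0 and 2) and Nppa did not pass the filter. Motor neuron markers summed to 16.9 and 20.8 against 54.1 and 52.1 CPM, with Mnx1 at 0 counts in all 4 libraries. Of 6 tested motor neuron markers 2 were called lower (Isl1 and Isl2) and 0 higher. The part of heart and motor neurons in the Tbx20 values was not tested.

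**Figure D3:**
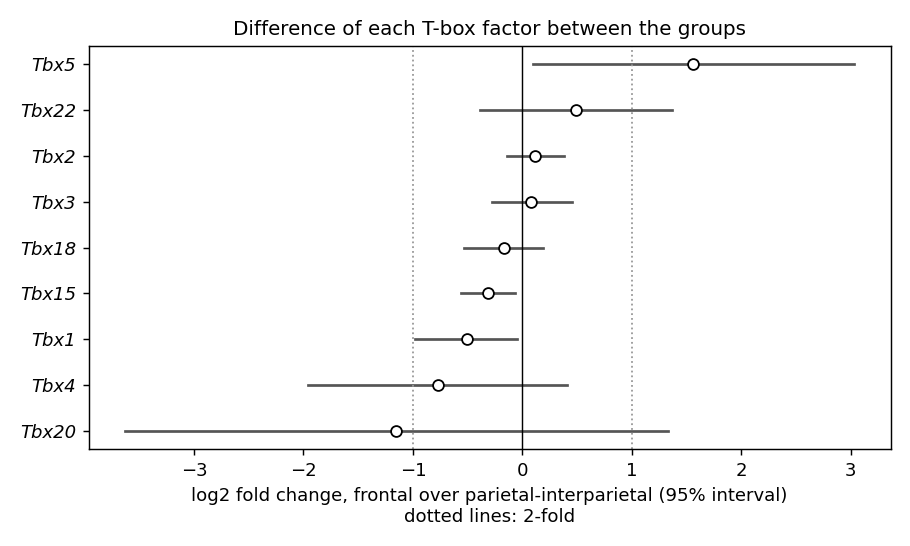
Log2 fold change of each T-box factor, frontal over parietal-interparietal, with its 95% interval from the edgeR fit. Open circles are factors that were not called, which are all 9, and the dotted lines mark a 2-fold change. Tbx15, Tbx1 and Tbx5 have intervals that leave out 0 before adjustment, and the intervals of Tbx20, Tbx5 and Tbx4 are the widest.

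Tbx2 and Tbx3 are repressors that hold back the cell cycle inhibitors of the Cdkn family and pattern the heart, limbs and retina. Tbx2 (ENSMUSG00000000093, chromosome 11, plus strand, 85832551 to 85841948) was at 30.7 and 27.3 CPM in frontal libraries 1 and 2, against 25.3 and 27.9 CPM in parietal-interparietal libraries 1 and 2. The groups overlapped, with a log2 fold change of 0.12 ± 0.12 (95% interval −0.14 to 0.38, edgeR adjusted p = 0.555). Tbx3 (ENSMUSG00000018604, chromosome 5, plus strand, 119670669 to 119684724) was at 13.9 and 11.6 CPM in frontal libraries, against 13.2 and 10.9 CPM in parietal-interparietal ones. Its spread within each group was larger than the difference between the groups, which was 0.08 ± 0.16 log2 units (95% interval −0.28 to 0.45, adjusted p = 0.807). The sign of that difference turned to −0.05 without frontal library 1 and without parietal-interparietal library 2. The ratio of Tbx2 to Tbx3 counts was 2.20 and 2.36 in frontal and 1.92 and 2.55 in parietal-interparietal libraries.

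Tbx4 and Tbx5, the factors of the hindlimb and of the forelimb and heart, lie downstream of Tbx2 and Tbx3 on the same strand, Tbx4 44.5 kb beyond Tbx2 and Tbx5 147.9 kb beyond Tbx3. Both were far below their neighbours. Tbx4 (ENSMUSG00000000094, chromosome 11, 85886422 to 85916097) had 27 and 20 counts in frontal and 32 and 34 counts in parietal-interparietal libraries, or 0.939 and 0.568 against 1.31 and 1.25 CPM. Both frontal libraries were lower, but the log2 fold change of −0.77 ± 0.53 (95% interval −1.96 to 0.41) was not called (edgeR adjusted p = 0.398). Tbx5 (ENSMUSG00000018263, chromosome 5, 119832668 to 119885219) had 20 and 56 counts in frontal and 8 and 12 counts in parietal-interparietal libraries. This made 0.695 and 1.59 CPM in frontal libraries 1 and 2, against 0.327 and 0.442 CPM in parietal-interparietal libraries 1 and 2. It was the only T-box factor of the 9 with both frontal libraries above both others, and frontal library 2 held over 2 times the level of frontal library 1. The log2 fold change was 1.56 ± 0.66 (95% interval 0.10 to 3.03, edgeR adjusted p = 0.158). Without frontal library 1 it was 2.03 and called (adjusted p = 0.0119), and without frontal library 2 it was 0.83 and not called (adjusted p = 0.557), and 11 alternatives gave an adjusted p from 0.0119 to 0.558. Tbx5 is also known from the dorsal retina. Of 5 tested eye markers 1 was called higher (Six6), and the list summed to 32.5 and 43.7 CPM in frontal libraries, against 34.2 and 39.8 CPM in parietal-interparietal ones.

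In all, 10 other genes overlapped a T-box factor or lay within 5 kb of one. Of these 4 passed the filter and 1 was called, where 12.7% of all tested genes were called. The called gene was Tbx3os1, an antisense RNA gene whose first 697 bases overlap the start of Tbx3 on the opposite strand (ENSMUSG00000087516, chromosome 5, minus strand, 119570130 to 119671365). It lies outside the rule for named genes and was chosen after its values were seen. Tbx3os1 had 289 and 343 counts in frontal and 144 and 175 counts in parietal-interparietal libraries. These were 10.1 and 9.74 CPM in frontal libraries 1 and 2, against 5.89 and 6.45 CPM in parietal-interparietal libraries 1 and 2. Both frontal libraries lay well above both others, and the libraries of a group lay close together. Tbx3os1 was 1.60-fold higher in frontal libraries, with a log2 fold change of 0.68 ± 0.18 (95% interval 0.29 to 1.07, edgeR adjusted p = 0.0314). The call was lost in DESeq2 (adjusted p = 0.0536), without parietal-interparietal library 1 (0.282) or 2 (0.164), and with these libraries summed as 1 sample (0.232), and was strongest without frontal library 2 (0.00453). The ratio of Tbx3 to Tbx3os1 counts was 1.39 and 1.19 in frontal and 2.24 and 1.70 in parietal-interparietal libraries, without overlap. Whether the counting used strand is not given in the sources used here, so reads in the shared stretch cannot be told apart. The antisense gene Gm43120 within Tbx15 had 35 and 24 counts in frontal and 28 and 34 counts in parietal-interparietal libraries and was not called, nor was 2610027K06Rik, which starts 327 bases from Tbx2 on the opposite strand (38 and 31 against 40 and 28 counts).

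**Figure D4:**
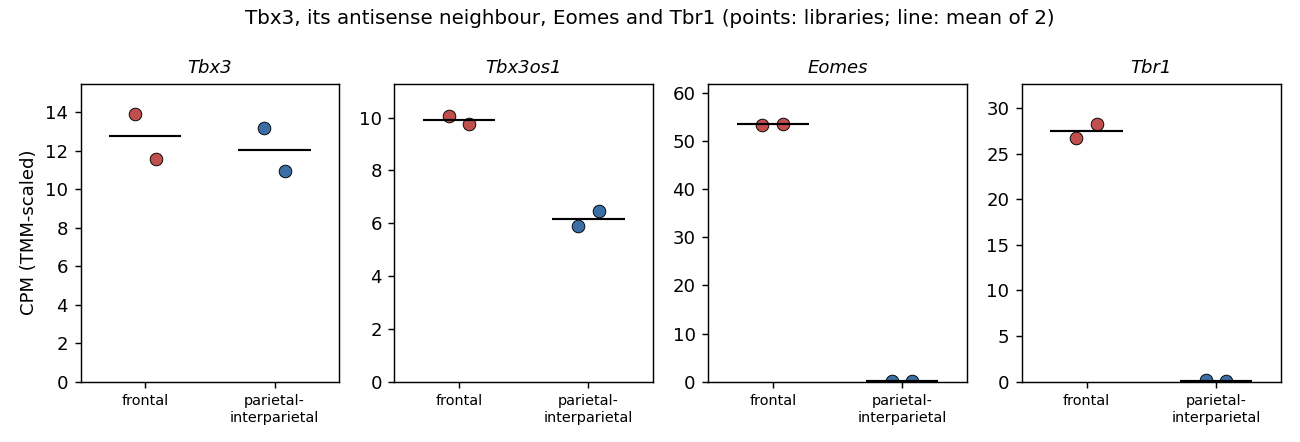
TMM-scaled CPM (linear axes from 0) of Tbx3, its antisense neighbour Tbx3os1, and the T-box genes Eomes and Tbr1 in frontal (red) and parietal-interparietal (blue) libraries. Points are libraries and lines are means of 2. Tbx3 overlaps between the groups, Tbx3os1 is 1.60-fold higher in frontal libraries, and Eomes and Tbr1 are near 0 in the parietal-interparietal libraries.

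Of the other 8 T-box genes 5 passed the filter and 2 were called (12.7% of all tested genes), both higher in frontal libraries (6.25%). These were Eomes and Tbr1, factors of cortical intermediate progenitors and of cortical excitatory neurons. Eomes was at 53.3 and 53.6 CPM in frontal libraries and at 0.246 and 0.0737 CPM in parietal-interparietal libraries. Tbr1 was at 26.7 and 28.3 CPM against 0.164 and 0.0737 CPM. Their log2 fold changes were 8.39 ± 0.24 (edgeR adjusted p = 3.2e-08) and 7.83 ± 0.27 (adjusted p = 1.11e-07), so each lay outside the 95% interval of every one of the 9 T-box factors above. In the same libraries 6 of 11 tested brain markers were called higher (among them Map2, Sox2, Emx2, Neurod2 and Pax6) and 2 lower (En1 and En2), and the part of brain tissue in the Eomes and Tbr1 values was not tested. Mga, a large protein with a T-box and a second DNA-binding domain, had 126.8 and 124.0 CPM in frontal and 126.8 CPM in each of the parietal-interparietal libraries, and its interval was narrow (−0.19 to 0.16 log2 units). Tbx6, a factor of paraxial mesoderm, had 79 and 38 counts against 31 and 40, and T (brachyury), the factor of early mesoderm and notochord that gave the family its name, had 22 and 19 against 3 and 18. Neither was called. Tbx19 of the pituitary (17 and 6 against 2 and 0 counts), Tbx21 of T cells (4 and 6 against 2 and 2) and Tbx10 (0 and 0 against 0 and 2) did not pass the filter. Pituitary markers summed to 18.9 and 18.4 CPM in frontal libraries, against 3.56 and 5.90 CPM in parietal-interparietal ones. Only 2 of these 6 markers passed the filter, and 1 was called (Pitx1, higher in frontal libraries). The part of pituitary in the Tbx19 values was not tested.

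Genes that work with T-box factors were counted from a list of 32 partners, regulators and targets, of which 27 were tested. In frontal libraries 5 fell (Cyp26b1, Bmp2, Bmp4, Foxc1 and Cdkn1a), 1 rose (Chd7) and 21 were not called. Over all tested genes 6.44% were called lower and 6.25% higher. The list's median was −0.07 log2 units, against 0.01 over all genes tested. DESeq2 also called 6.

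Among the called targets, Cyp26b1, an enzyme that breaks down retinoic acid and is known to be regulated by Tbx1, was at 12.6 and 12.4 CPM in frontal libraries, against 26.7 and 24.4 CPM in parietal-interparietal ones. It was 2.04-fold lower in frontal libraries (log2 fold change −1.03 ± 0.13, edgeR adjusted p = 0.000738) and was the only gene of the list called in each of the 12 alternative settings. Its relatives Cyp26a1 and Cyp26c1 were not called, at log2 fold changes of 0.29 ± 0.39 and 1.74 ± 0.89. Cdkn1a, the cell cycle inhibitor p21 whose window with the T-box element is printed above, was at 63.4 and 66.6 CPM against 84.0 and 83.1 CPM. It was 1.29-fold lower (−0.36 ± 0.09, adjusted p = 0.0215), while its repressors Tbx2 and Tbx3 were not called. The gap junction gene Gja1, another target that Tbx2 and Tbx3 repress, had a log2 fold change of −0.27 ± 0.09 and was not called (adjusted p = 0.067). Nppa had 0 and 0 counts in frontal and 0 and 12 counts in parietal-interparietal libraries.

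Among upstream signals and partners, Bmp2 and Bmp4, ligands that induce Tbx2 and Tbx3, were 1.77-fold and 1.51-fold lower in frontal libraries. Bmp2 was at 5.39 and 6.36 CPM in frontal libraries, against 9.04 and 11.8 CPM in parietal-interparietal ones (log2 fold change −0.82 ± 0.20, edgeR adjusted p = 0.0238), and Bmp4 at 13.0 and 11.2 against 18.1 and 18.4 CPM (−0.59 ± 0.14, adjusted p = 0.021). Foxc1, a forkhead factor of skull mesenchyme and meninges that acts upstream of Tbx1 together with Foxc2, was 1.44-fold lower, at 31.1 and 26.7 against 43.1 and 39.9 CPM (−0.53 ± 0.11, adjusted p = 0.0136). Foxc2 had a log2 fold change of −0.56 ± 0.18 and was not called (adjusted p = 0.066). Meningeal markers, a list that holds Foxc1 and Foxc2 too, summed to 889 and 836 CPM in frontal libraries, against 1116 and 1117 CPM in parietal-interparietal ones. Chd7, a chromatin remodeller that interacts genetically with Tbx1, was 1.41-fold higher in frontal libraries, at 115 and 86.3 against 69.8 and 72.5 CPM (0.50 ± 0.12, adjusted p = 0.0261). Frontal library 1 held the highest Chd7 value, and the log2 fold change without it was 0.28. The 4 Groucho-type corepressors Tle1 to Tle4, through which Tbx15 and Tbx18 are known to repress, had log2 fold changes between −0.12 and 0.10, and none was called. The calls of Chd7, Foxc1, Bmp2, Bmp4 and Cdkn1a did not hold in the fit without parietal-interparietal library 2, nor in the fit that summed this pair, and apart from Bmp2 they did not hold without parietal-interparietal library 1.

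**Figure D5:**
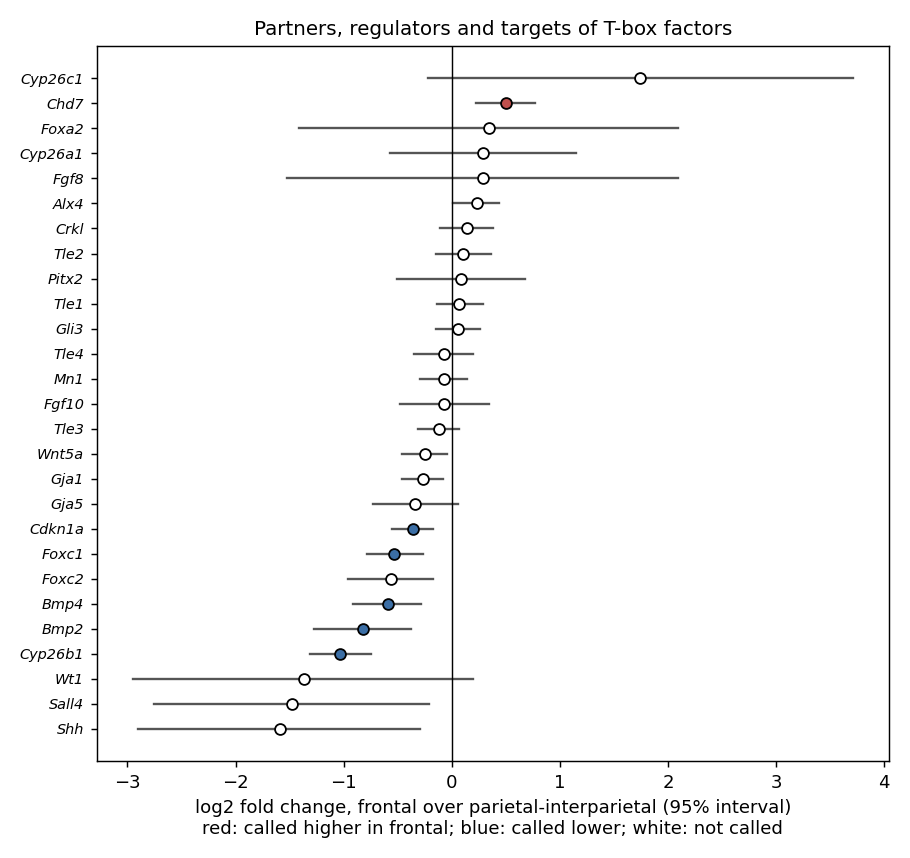
Log2 fold change, frontal over parietal-interparietal, with its 95% interval from the edgeR fit, for the 27 tested partners, regulators and targets of T-box factors. Red marks the gene called higher in frontal libraries (Chd7), blue the 5 called lower (Cyp26b1, Bmp2, Bmp4, Foxc1 and Cdkn1a), and white the 21 that were not called.

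Across the lists of other tissues, the T-box factors lay among differences of both signs, with more lists on the lower side. Of 17 marker lists 8 had lower calls only, while the eye and pituitary lists had higher calls only. Over all tested genes 6.44% were called lower and 6.25% higher. All 9 tested sensory ganglion markers were called lower, at a sum of 106 and 98.2 CPM in frontal libraries, against 230 and 239 CPM in parietal-interparietal ones. Among head mesenchyme factors, 3 of 13 were called higher (among them Msx1 and Alx1) and 4 lower (among them Twist1, Msx2 and Six2). Osteoblast markers gave 1 higher (Ibsp) and 1 lower (Col1a1) of 7, cartilage markers 0 higher and 2 lower of 6, meningeal markers 0 higher and 3 lower of 8, and endothelial markers 0 higher and 1 lower of 5. Heart markers gave 1 higher (Hand2) and 1 lower (Tnnt2) of 6, motor neuron markers 0 higher and 2 lower of 6, epidermal markers 1 higher (Krt8) and 1 lower (Cdh1) of 6, and pituitary markers 1 higher (Pitx1) and 0 lower of 2. No pigment cell marker of 6 was called by edgeR or DESeq2, and 0 had an unadjusted p under 0.05. The part of these tissues in the T-box values was not tested.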

How the data were processed

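Whole-number counts per gene were deposited by the authors, with 1 column per library and no normalization. The build GRCm38 and the tools featureCounts 2.0.1, HISAT2 2.1.0 and Trim Galore 0.6.7 are listed per the submitters' processing notes. Whether counting used strand, and with which annotation release, was not given in the sources used here. Of 55487 gene identifiers, 55141 matched GENCODE M21, which gave symbols, coordinates and exon lengths. Even numbers made up 68.3% to 74.4% of counts from 1 to 20, where chance gives about 50%, as counting both mates of a pair would give, so counts were also analysed halved.

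Genes were filtered with filterByExpr (minimum count 10), given TMM factors, and compared by the quasi-likelihood test of edgeR 4.0.16 in R 4.3.3 (two-sided), frontal against parietal-interparietal, group as the only term, 2 residual degrees of freedom, Benjamini-Hochberg adjustment over all 20947 genes. Each standard error is the size of the log2 fold change over the square root of its F statistic. DESeq2 1.42.0 was an alternative. The libraries of each group differed by more than sampling noise (median variance 4.92 and 1.47 times binomial in the frontal and the parietal-interparietal pair with counts halved). Counting intervals and limits cover counting error only.

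The T-box factors and all gene lists (32 partners, 8 other T-box genes, 17 marker lists) were chosen with earlier results of these data known. Named genes are the T-box genes, the called partners (at most 10) and, for each called T-box factor of the 9, its 3 nearest markers in pattern, of which there were none. Figures were drawn with matplotlib 3.10.9. Some genes of the marker lists are not reported by name here.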

Additional observations from a re-analysis of the deposited data

How the results depend on the processing

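With 2 libraries per group, the count of calls depended most on which library was left out, since such a fit takes its spread from the pair left whole. Over all genes the count was 2657, and 865 to 7279 with 1 library left out, and 791 when both parietal-interparietal libraries were summed. Among the 9 T-box factors it was 0, and 0 to 3 with 1 library left out. It was 1 (Tbx15) with no filter on low counts, where 10.9% of all genes were called, and 1 (Tbx15, adjusted p = 0.0489) with the replicate number as a block, where 15.8% were called. Among the partners it was 6, and 1 to 13 with 1 library left out, and 1 (Cyp26b1) with the pair summed. No T-box factor of the 9 was called with size factors of the RLE kind, with scaling to the total count only, in DESeq2, with counts halved, with the pair summed, or without the ribosomal RNA-like locus and mitochondrial genes.

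Of 106 refitted values of the 9 T-box factors, 96 kept their direction and their side of the threshold, 7 passed it and 3 changed sign. With 1 library left out, the log2 fold change ranged from −0.05 (without frontal library 1 or parietal-interparietal library 2) to 0.22 for Tbx3, from −0.36 to 0.05 (without parietal-interparietal library 2) for Tbx18, from −0.03 (without parietal-interparietal library 1) to 2.36 for T, and from −0.34 (without frontal library 1) to 0.99 for Tbx6. With scaling to the total count only, 38.0% of called genes were higher in frontal libraries, against 49.3% with TMM, and the median over all genes was −0.046 log2 units.

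Equal replicate numbers are not said to mark a shared animal or batch, and the deviations of equally numbered libraries had a correlation of 0.0206 over 20947 genes. With the replicate block 3306 genes were called. With counts halved, Tbx5 and Tbx20 did not pass the filter. Depth limits Tbx4, Tbx5, Tbx20 and Tbx22. The neighbour gene Tbx3os1 was followed through the settings after its values were seen.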
